A study of Drosophila melanogaster with 9 samples.

Results

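Antisense RNAs are transcripts read from the strand opposite a coding gene. The set described here held the 30 genes whose FlyBase symbol begins with asRNA: and whose mean over all 9 libraries was above 0.2 RPKM (read number corrected for library depth and gene length). They were 30 of 96 asRNA: genes in a table of 15682 genes. The members were chosen by their mean RPKM over all libraries, so their levels are a description, and 7 of the 30 had a mean at or under 0.2 RPKM in at least 1 genotype. A member carried over the threshold by the other genotypes had to differ between genotypes to some degree. This holds for asRNA:CR43767, asRNA:CR43877, asRNA:CR43786, asRNA:CR43889, asRNA:CR43891, asRNA:CR43471 and asRNA:CR43964.

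The study measured poly(A) RNA from wing discs of male Drosophila melanogaster larvae of instar 3, kept at 25 °C, with the notum cut away and 30 discs in each library. There were 3 genotypes with 3 libraries each. All of them carried the Bx-GAL4 (MS1096) driver, UAS-dicer2 and the w1118 background from the same mothers. Fathers brought a UAS hairpin against the non-coding RNA CR32027, either VDRC 26860 (CR32027-IR1) or VDRC 103512 (CR32027-IR2), or came from the OreR wild-type strain (control without a hairpin). Controls therefore also had the driver and extra Dicer-2. MS1096 is a GAL4 insertion in Bx that drives expression mainly in the wing pouch. The fathers came from different stocks, so an effect of a hairpin and a difference in stock background cannot be told apart. Whether the replicates of a genotype were separate crosses is not in the labels, and the spread behind every p-value may be technical.

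Where RNAs from both strands of a locus are present in a cell they can pair, and Drosophila Dicer-2 cuts long double-stranded RNA into short interfering RNAs that AGO2 uses. Convergent and nested gene pairs are known sources of such endogenous short interfering RNAs in flies. Antisense transcription can also act on the coding gene through the passage of the polymerase or through chromatin, and many antisense RNAs have no known role.

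The target of the hairpins was checked first. CR32027 stood at 2.38, 3.30 and 2.53 RPKM in OreR, at 4.46, 3.34 and 2.93 in libraries labelled CR32027-IR1, and at 0.408, 1.12 and 1.19 in CR32027-IR2. It was not lower in libraries labelled CR32027-IR1, where the change was 0.35 on the log2(RPKM + 0.25) scale (limma, adjusted p = 0.483; exact two-sided permutation p = 0.2). In CR32027-IR2 it fell by 1.44 (limma, adjusted p = 0.0247), and the exact permutation p of 0.1 is the smallest that 3 against 3 libraries allow. That call was lost when any 1 of the OreR libraries was left out (limma, adjusted p = 0.0619, 0.102 and 0.0608 without replicates 1, 2 and 3). Whether reads of the hairpin transcripts themselves enter the CR32027 value was not tested. Depth, recovered from the steps between low values, was 25070343 to 36512316 reads per library. Libraries of 1 genotype correlated at 0.983 to 0.992 on the log scale, and libraries of different genotypes at 0.974 to 0.985. Summed levels of the wing pouch markers nub, vg, Dll and sd were 53.2 to 58.7 RPKM in libraries labelled CR32027-IR1, where nub fell, 58.5 to 61.5 in CR32027-IR2 and 59.6 to 61.5 in OreR. Tracheal markers were 119 to 176 RPKM in those libraries, 178 to 210 in CR32027-IR2 and 98.7 to 144 in OreR, with trh lower in both hairpin genotypes, Gasp lower in CR32027-IR1 and serp higher in CR32027-IR2. Fat body markers summed to 0.682 to 2.71 RPKM in libraries labelled CR32027-IR1, 0.197 to 3.15 in CR32027-IR2 and 0.118 to 0.622 in OreR. Neuronal markers were at 3.43 to 3.67, 3.62 to 3.83 and 3.75 to 4.04 RPKM in that order, so for both lists libraries labelled CR32027-IR1 did not overlap OreR. Nor did the wing pouch sum in libraries labelled CR32027-IR1 or the tracheal sum in CR32027-IR2. Sums over all libraries were 10.3 to 13.5 RPKM for notum, 4.84 to 6.73 for muscle precursors, 1.15 to 9.68 for hemocytes and 3.61 to 6.30 for testis. Few of these genes were high enough to test, namely 1 of 5 for fat body, 1 of 5 for neurons, 3 of 5 for notum, 2 of 5 for muscle precursors, 5 of 6 for hemocytes and 1 of 7 for testis, and none of those tested passed against OreR. The testis genes sa, aly and dj were at 0 in all libraries. Their part in the results on antisense RNAs was not tested.

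Most antisense RNAs were scarce. The median member had a mean of 0.784 RPKM, against 12.5 for all 8487 genes above 0.2 RPKM. Of the 30 members, 14 reached 1 RPKM and 8 were under 0.5, and 28 of the 96 asRNA: genes had no read in any library. Just inside the threshold lay asRNA:CR43964 at 0.205 RPKM, asRNA:CR43471 at 0.213, asRNA:CR43891 at 0.220, asRNA:CR43957 at 0.230 and asRNA:CR43889 at 0.256. Just outside were asRNA:CR43809 at 0.180, asRNA:ASTR at 0.175, asRNA:CR43916 at 0.158, asRNA:CR43470 at 0.155 and asRNA:CR43868 at 0.134. Members had 28 to 6340 reads over all 9 libraries, with a median of 334, and 7 of them had under 100. A library without a read was found for 1 member, asRNA:CR43891, in OreR replicate 1, where a count of 0 allows up to 3.69 reads (exact Poisson 95% interval, counting error only).

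**Figure D1:**
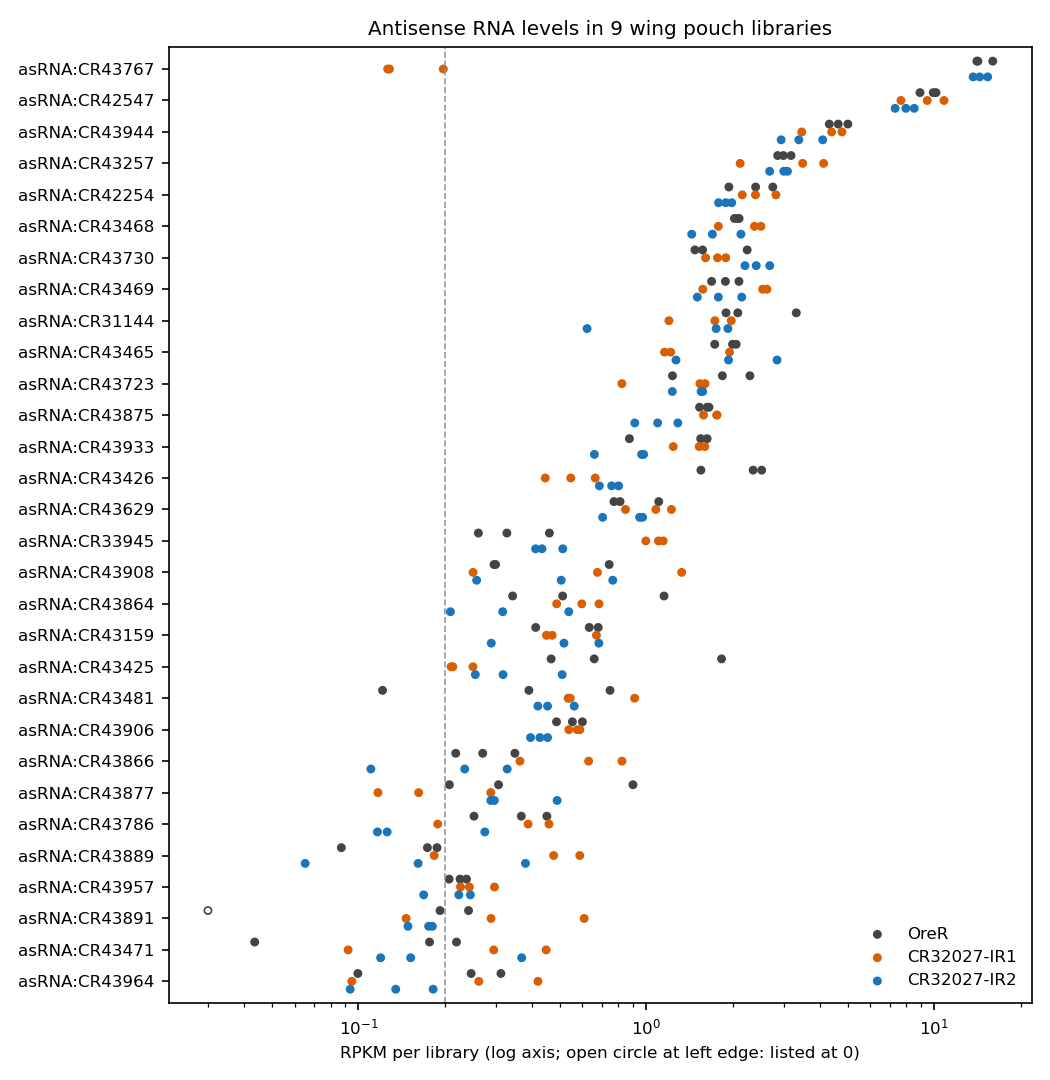
RPKM of each of the 30 antisense RNAs in all 9 libraries on a log axis, with 1 point per library, coloured by genotype, and a dashed line at the threshold of 0.2 RPKM. An open circle marks the library listed at 0. The 3 libraries labelled CR32027-IR1 lie at 0.126 to 0.197 RPKM for asRNA:CR43767, while the other 6 lie at 13.7 to 16.0.

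In the BDGP6 annotation every member overlapped exons of a coding gene on the opposite strand, taken here as its partner. Some members overlapped several such genes, and then only the gene sharing the most exon bases was taken. Level shares and paired changes below leave the others out. By span, 12 members lay inside their partner and 18 reached past its end. The nested members had a median of 0.446 RPKM and a median coefficient of variation between replicates of 40.3%. Those reaching past the partner stood at a median of 1.34 RPKM with a coefficient of 15.4%. The read number differs along with this split: over all members the coefficient was 13.7% for the 16 with at least 300 reads and 41.7% for the 14 with fewer. On chromosomes the members were spread as 9 on 2R, 9 on 3L, 4 on 3R, 3 on 2L, 3 on X and 2 on 4. The nearest pair on the same strand, asRNA:CR43468 and asRNA:CR43469, were 76 bases apart.

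Of the 30 partners, 29 were in the table, and betaGlu, the partner of asRNA:CR33945, was not analysed here. Among these, 21 were above 0.2 RPKM and 8 were at or under it. Over the 21 expressed partners the antisense RNA stood at a median of 4.52% of the coding RPKM, with a range from 0.171% to 404%. For most genes with introns the RPKM used the genomic span as length, so these shares also depend on the introns of both genes. The lowest share belonged to asRNA:CR31144, which overlaps RpL3, a protein of the large ribosomal subunit (1.83 against 1073 RPKM). The highest was asRNA:CR43468 over Lfg, a gene of the Bax inhibitor family (2.01 against 0.498 RPKM). In 9 of the 29 pairs the antisense RNA had the higher RPKM, and in 8 of these the coding gene was at or under 0.2 RPKM.

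The strand setting of the counting is not given, so reads of the coding gene could in principle enter the antisense value. Of 27 asRNA: genes whose partner reached 10 RPKM, 17 stood under 1% of that partner, and the median was 0.486%. asRNA:CR43430, which lies wholly within hts exons, had 1 read in all 9 libraries together while hts stood at 17.2 RPKM. Whether such low values come from counting by strand or from dropping reads of overlapping genes was not tested. In libraries labelled CR32027-IR1, asRNA:CR43767 had 11 reads against 3360 for Tango14, and its RPKM was 0.65% of the coding value. Of the 21 members with an expressed partner, 5 were under 1% of it: asRNA:CR31144 (RpL3), asRNA:CR43481 (Hsp67Ba, a small heat shock protein gene), asRNA:CR43889 (Mi-2, a chromatin remodeller), asRNA:CR43957 (ci, the transcription factor of the Hedgehog pathway) and asRNA:CR43964 (CG15093). Whether their values hold reads of the coding strand was not tested. In BDGP6, asRNA:CR43468 (AspRS), asRNA:CR43730 (CG30099) and asRNA:CR43906 (cin) also overlap the named coding gene on their own strand. Overlaps may differ in the annotation that was counted. Where bases are shared there, their reads are ambiguous whatever the strand setting.

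**Figure D2:**
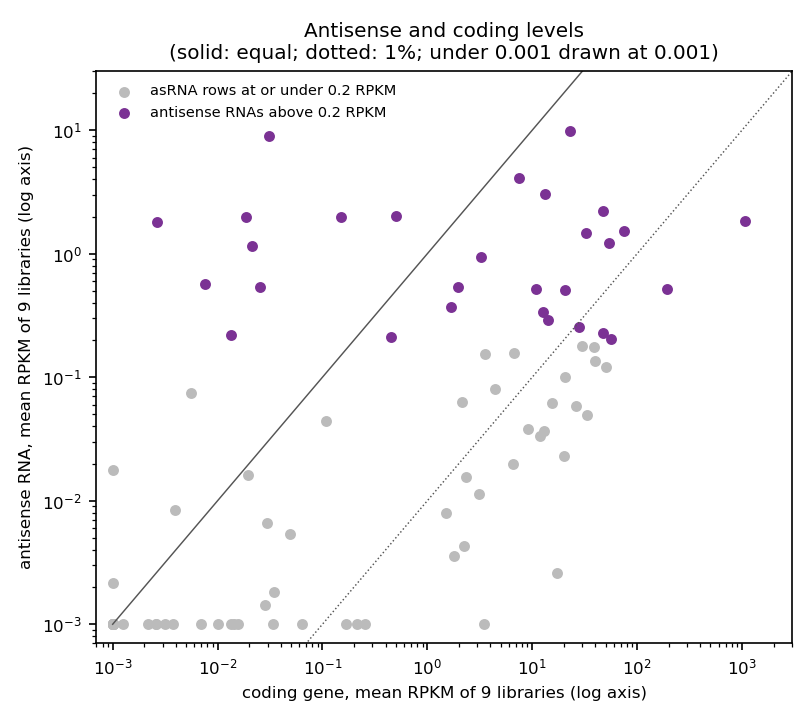
Mean RPKM over 9 libraries of each antisense RNA against that of its coding partner, both on log axes, with 1 point per pair, members in purple and the other asRNA: genes in grey. The solid line marks equal levels and 9 members lie to its left, while 5 lie below the dotted line at 1% of the coding level.

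The most abundant members after asRNA:CR43767 gave no call. asRNA:CR42547 had the largest read number of all, with 10.1, 9.93 and 8.93 RPKM in OreR, 10.8, 7.67 and 9.46 in libraries labelled CR32027-IR1 and 7.32, 7.97 and 8.53 in CR32027-IR2. The CR32027-IR2 libraries were below all OreR libraries, while those labelled CR32027-IR1 overlapped both. Its partner CG15674 was close to 0, at a mean of 0.0534 RPKM in OreR. asRNA:CR43944 stood at 5.01, 4.64 and 4.32 RPKM in OreR, at 4.40, 3.47 and 4.78 in libraries labelled CR32027-IR1 and at 2.94, 3.39 and 4.10 in CR32027-IR2. It reached 55.1% of the level of its partner fbl, which encodes pantothenate kinase, the first enzyme of coenzyme A synthesis. asRNA:CR43257, opposite ETH, stood at 2.86, 3.18 and 2.99 RPKM in OreR, at 3.49, 2.12 and 4.13 in libraries labelled CR32027-IR1 and at 3.09, 2.68 and 3.00 in CR32027-IR2. Its genotypes overlapped. asRNA:CR42254 (means of 2.36, 2.46 and 1.88 RPKM in OreR, CR32027-IR1 and CR32027-IR2) lies opposite BEAF-32, which encodes a chromatin boundary factor. asRNA:CR43468 (2.07, 2.22 and 1.76 RPKM) and asRNA:CR43469 (1.89, 2.24 and 1.81 RPKM) lie opposite Lfg and Balat. asRNA:CR43730 had means of 1.76, 1.75 and 2.43 RPKM in that order. Its partner JhI-26, a juvenile hormone-inducible gene, stood at 0.0587, 0.0546 and 0.0435 RPKM in OreR, at 0.0327, 0.0166 and 0.0918 in libraries labelled CR32027-IR1 and at 0.395, 0.370 and 0.278 in CR32027-IR2. JhI-26 was higher in all CR32027-IR2 libraries than in any other, but with a mean under 0.2 RPKM it was not tested. None of the 7 passed the test in any comparison (limma, adjusted p from 0.0799 to 0.972).

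Few antisense RNAs passed the test against OreR. In libraries labelled CR32027-IR1, 3 of 30 members (10%) passed, against 12% of all genes tested, with 1 higher (5.24% of all genes were higher) and 2 lower (6.75%). In CR32027-IR2, 1 of 30 members (3.33%) passed, against 5.15% of all genes, and it was lower (2.14% of all genes were lower, 3% higher). Between the hairpin genotypes 4 of 30 members (13.3%) passed, against 19.7% of all genes, with 3 higher (10.8% of all genes) and 1 lower (8.85%) in libraries labelled CR32027-IR1. The split of all genes called in that comparison was 919 higher and 751 lower, and it became 719 and 1007 with libraries centred on the same median. Groups of libraries did not overlap for 5, 5 and 11 members in the 3 comparisons (16.7%, 16.7% and 36.7%), where all genes gave 30%, 28% and 37.8%. For all calls together and for groups that did not overlap, no share was above that of all genes; for calls lower in CR32027-IR2 the share of members, which is 1 RNA, was above it. Both comparisons with OreR share its libraries, so they are not independent of each other.

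The median member changed by 0.06 on the log2 scale in libraries labelled CR32027-IR1 and by -0.17 in CR32027-IR2, where all genes had medians of 0.01 and -0.03. Against OreR 18 members had a higher and 12 a lower log2 value in the former, and 8 a higher and 22 a lower value in the latter. Higher values thus made up 60% and 26.7% of members, and 53.1% and 41.4% of all genes, which also leaned lower in CR32027-IR2. Between the hairpin genotypes the median was 0.26 against 0.03 for all genes, with 23 members (76.7%) above 0, where all genes gave 56.5%. This comparison uses the same CR32027-IR2 libraries as the one against OreR, so their leans are not independent of each other. Neither lean was recounted with libraries centred on the same median. Precision was lower than for most genes: a 95% interval reached a median of 0.51 log2 units to each side for members and 0.19 for all genes. At an unadjusted p under 0.05 there were 5, 7 and 7 of 30 members in the 3 comparisons, where all genes gave 28.1%, 18.5% and 34.5%.

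**Figure D3:**
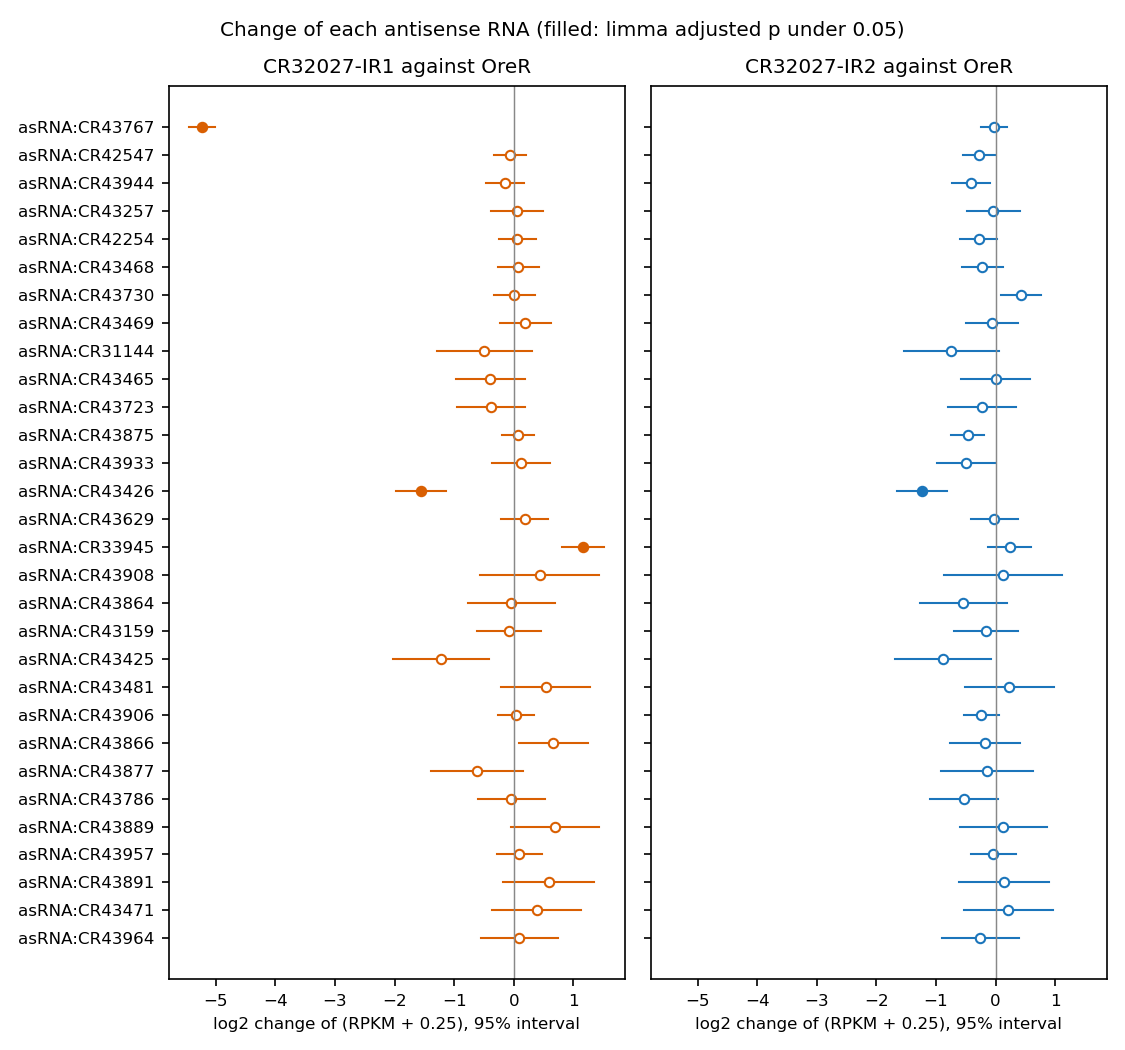
Log2 change of each antisense RNA with its 95% interval against OreR in both hairpin genotypes, on the log2(RPKM + 0.25) scale from the limma fit, with filled points for adjusted p under 0.05. asRNA:CR43767 lies at -5.23 in libraries labelled CR32027-IR1 and at -0.03 in CR32027-IR2, and asRNA:CR43426 is the member with a filled point in both.

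asRNA:CR43767 was almost lost in 1 genotype. It is a single exon of 780 bases on the minus strand of chromosome 2L (BDGP6, 1158576 to 1159355), and 695 of its bases lie in exons of Tango14, a gene named from a screen for secretion and Golgi organization. It stood at 16.0, 14.1 and 14.2 RPKM in OreR and at 14.4, 15.3 and 13.7 in CR32027-IR2. The libraries labelled CR32027-IR1 had 0.126, 0.128 and 0.197 RPKM, or 3, 3 and 5 reads. These 3 libraries lay far below all others, and the OreR and CR32027-IR2 libraries overlapped. The mean of 0.151 ± 0.0404 RPKM (SD, n = 3) was 98.0-fold below the OreR mean of 14.7 ± 1.07 (SD, n = 3). On the log2 scale it fell by 5.23 ± 0.09 (SE; limma, adjusted p = 9.55e-09), and this call held in 19 of 19 alternatives with a change from -6.44 to -3.77. In CR32027-IR2 the change was -0.03, with a 95% interval from -0.24 to 0.19 (limma, adjusted p = 0.933). The hairpin genotypes differed directly by -5.20 (limma, adjusted p = 1e-08).

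Its coding partner gave no call. Tango14 stood at 26.8, 23.2 and 20.6 RPKM in OreR, 23.1, 20.7 and 25.5 in libraries labelled CR32027-IR1 and 21.1, 23.0 and 22.3 in CR32027-IR2. The 3 genotypes overlapped, with adjusted p of 0.906 and 0.764 against OreR (limma). capt, the gene of the actin-binding cyclase-associated protein, lies 314 bases away on the strand of the antisense RNA. Its means were 46.9 RPKM in OreR, 48.1 in libraries labelled CR32027-IR1 and 51.9 in CR32027-IR2 (limma, adjusted p = 0.705 and 0.132).

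asRNA:CR43426 was the only member called lower in both hairpin genotypes, though other members also had negative log2 values in both. It lies on the plus strand of chromosome 3L (BDGP6, 22850111 to 22854434) and shares 1102 exon bases with CG32462; the gene length recovered from its RPKM steps, 3658 bases, was shorter than the 4324 bases of this span. OreR had 1.55, 2.35 and 2.52 RPKM, libraries labelled CR32027-IR1 had 0.664, 0.546 and 0.446, and CR32027-IR2 had 0.801, 0.758 and 0.687. All 6 hairpin libraries were below the lowest OreR library. Means were 2.14 ± 0.518 RPKM in OreR, 0.552 ± 0.11 in CR32027-IR1 and 0.749 ± 0.0576 in CR32027-IR2 (SD, n = 3 each), so the ratios were 3.87-fold and 2.86-fold lower. On the log2 scale it fell by 1.56 ± 0.18 (SE; limma, adjusted p = 0.0014) and by 1.23 ± 0.18 (adjusted p = 0.00519). The hairpin genotypes did not pass the test against each other (-0.32; limma, adjusted p = 0.245). The same OreR libraries serve in both comparisons. CG32462 had 1 to 4 reads in each genotype, so nothing could be read from the coding strand at this depth.

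asRNA:CR33945 was higher in libraries labelled CR32027-IR1 than in either other genotype. It lies on the plus strand of chromosome 3R (BDGP6, 31767973 to 31769423) and shares 131 exon bases with betaGlu, named for beta-glucuronidase. It stood at 0.461, 0.328 and 0.261 RPKM in OreR, at 0.996, 1.10 and 1.14 in libraries labelled CR32027-IR1 and at 0.434, 0.512 and 0.412 in CR32027-IR2. The libraries labelled CR32027-IR1 were all above the 6 others, which overlapped. Its mean of 1.08 ± 0.0764 RPKM (SD, n = 3) was 3.09-fold the OreR mean of 0.35 ± 0.102 (SD, n = 3), and it rose by 1.16 ± 0.16 on the log2 scale (SE; limma, adjusted p = 0.00263). In CR32027-IR2 the change was 0.24, with an interval from -0.12 to 0.60 (limma, adjusted p = 0.49). The direct difference was 0.92 ± 0.16 (SE; limma, adjusted p = 0.00493). The reads behind these values were 43 in OreR, 146 in CR32027-IR1 and 60 in CR32027-IR2. A non-coding neighbour 183 bases away on the other strand, lncRNA:CR43436, had means of 1.06, 1.57 and 0.84 RPKM in OreR, CR32027-IR1 and CR32027-IR2. It passed only between the hairpin genotypes (limma, adjusted p = 0.014).

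Both remaining calls arose only between the hairpin genotypes. asRNA:CR43875, on the minus strand of 3L (BDGP6, 20315134 to 20317283), lies opposite alphaSnap, which takes apart SNARE complexes after membrane fusion. It stood at 1.63, 1.65 and 1.53 RPKM in OreR, at 1.76, 1.58 and 1.76 in libraries labelled CR32027-IR1 and at 1.29, 0.912 and 1.09 in CR32027-IR2. CR32027-IR2 was below all other libraries, while the other genotypes overlapped. The direct difference was 0.54 ± 0.12 (SE; limma, adjusted p = 0.0153), and it was lost without CR32027-IR1 replicate 1 (adjusted p = 0.0557) or CR32027-IR2 replicate 2 (adjusted p = 0.0536). Against OreR the value in CR32027-IR2 was -0.47 (limma, adjusted p = 0.0644). alphaSnap had means of 33.0, 32.1 and 32.3 RPKM in OreR, CR32027-IR1 and CR32027-IR2 (limma, adjusted p = 0.689 and 0.847 against OreR). asRNA:CR43875 also shares 94 exon bases with Spn77Ba, which had means of 61.9, 61.7 and 56.0 RPKM in that order. Spn77Ba was lower in all CR32027-IR2 libraries than in any other. It gave no call there (limma, adjusted p = 0.164 against OreR and 0.082 between the hairpin genotypes).

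asRNA:CR43866 lies inside Gal, which encodes beta-galactosidase, on the plus strand of 2L (BDGP6, 6004167 to 6006333). It stood at 0.218, 0.270 and 0.349 RPKM in OreR, 0.364, 0.630 and 0.823 in libraries labelled CR32027-IR1 and 0.329, 0.234 and 0.110 in CR32027-IR2. The libraries labelled CR32027-IR1 were all above the others, by a small gap. The direct difference of 0.84 ± 0.26 (SE) lay just under the threshold (limma, adjusted p = 0.04998) and was called in 3 of 18 alternatives, with adjusted p from 0.035 to 0.150. Gal itself stood at 2.55, 2.28 and 3.16 RPKM in OreR, 1.66, 0.696 and 1.10 in libraries labelled CR32027-IR1 and 1.77, 0.551 and 1.55 in CR32027-IR2. OreR was above all hairpin libraries, but neither difference passed (limma, adjusted p = 0.081 and 0.165). Tsp26A, 429 bases away on the same strand as asRNA:CR43866, had means of 19.5, 14.8 and 16.3 RPKM in OreR, CR32027-IR1 and CR32027-IR2. It passed in libraries labelled CR32027-IR1 (-0.40; limma, adjusted p = 0.00847) but not in CR32027-IR2 (adjusted p = 0.0815). CG9098, 1031 bases away, passed only between the hairpin genotypes, lower in those labelled CR32027-IR1 (limma, adjusted p = 0.0277).

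asRNA:CR43425, inside unc-13 on chromosome 4 (BDGP6, 867824 to 871426, plus strand), came near the threshold. The gene length recovered from its RPKM steps was 1723 bases, against 3603 in BDGP6, so its overlap with unc-13 may differ in the annotation that was counted. It stood at 1.83, 0.467 and 0.659 RPKM in OreR, 0.210, 0.213 and 0.25 in libraries labelled CR32027-IR1 and 0.318, 0.510 and 0.255 in CR32027-IR2. OreR replicate 1 was the highest library by a wide margin, with 80 reads against 22 and 39 in the other OreR libraries. The change in libraries labelled CR32027-IR1 was -1.22 ± 0.36 (SE; limma, adjusted p = 0.0571), and it was called in 2 of 18 alternatives, with adjusted p from 0.0411 to 0.142. For this RNA the change in CR32027-IR2 was -0.88 (limma, adjusted p = 0.23). Its partner unc-13, needed to prime synaptic vesicles, had means of 12.3, 8.13 and 11.8 RPKM in OreR, CR32027-IR1 and CR32027-IR2. In limma unc-13 fell by 0.59 in libraries labelled CR32027-IR1 (adjusted p = 0.00214) and did not pass in CR32027-IR2 (-0.06; adjusted p = 0.771).

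**Figure D4:**
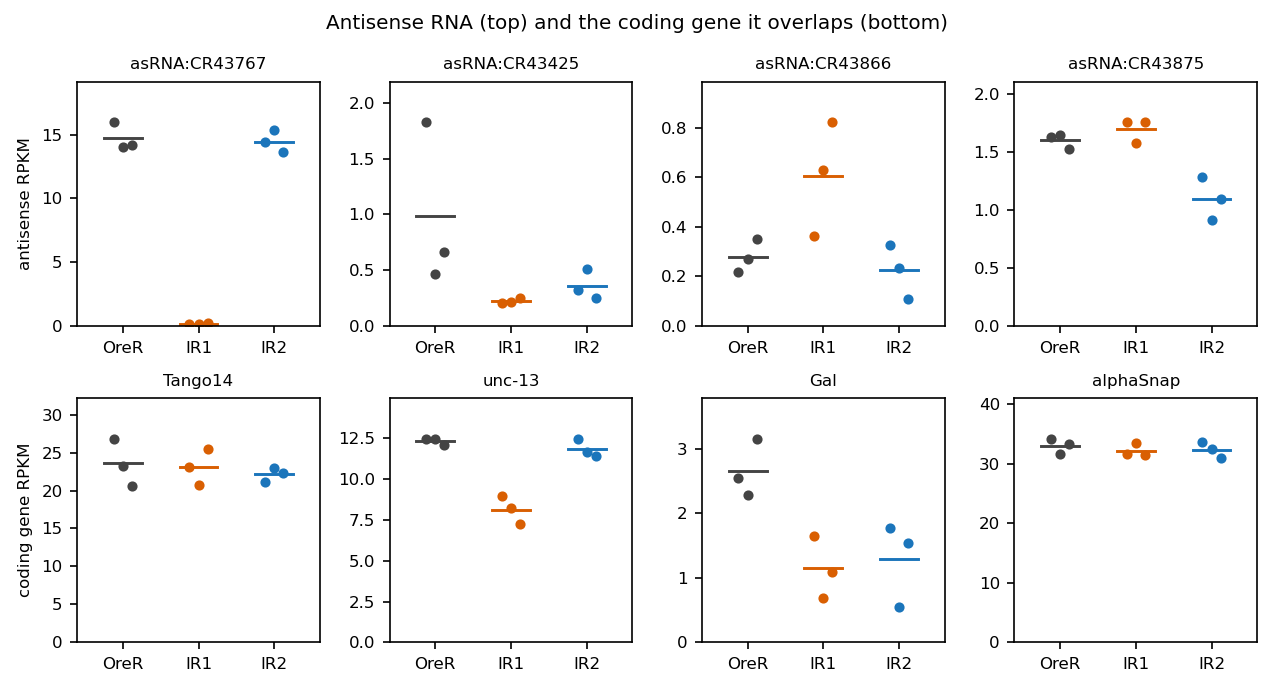
RPKM of 4 antisense RNAs (top) and of their coding partners (bottom), with 1 point per library and a bar at the mean of each genotype; IR1 and IR2 stand for CR32027-IR1 and CR32027-IR2. asRNA:CR43767 has a mean of 0.151 RPKM in libraries labelled CR32027-IR1, and Tango14 lies between 20.6 and 26.8 RPKM in all 9 libraries.

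Across the 21 pairs with an expressed partner, the log2 change of the antisense RNA and that of the coding gene had a Pearson's r of -0.06, 0.12 and -0.03 in the 3 comparisons. Points of a pair share their libraries, and members with few reads scatter widely. Signs matched in 8, 19 and 11 of the 21 pairs, and both medians were below 0 in CR32027-IR2. Of the partners, 3 of 21 passed against OreR in libraries labelled CR32027-IR1 (12.1% of all coding genes) and 1 in CR32027-IR2 (5.08%), and in none of these 4 pairs did the antisense RNA pass. Between the hairpin genotypes ETH, unc-13 and Arv1 passed, 3 of 21 against 19.9% of coding genes. ETH, which encodes the ecdysis triggering hormones, rose from 12.1 to 16.8 RPKM in libraries labelled CR32027-IR1, a log2 rise of 0.47 (adjusted p = 0.00707 in limma). Its antisense RNA asRNA:CR43257 had means of 3.01 RPKM in OreR and 3.25 in those libraries. Arv1, which acts in sterol transport, rose by 0.34 (limma, adjusted p = 0.0416), a call lost in 14 of 19 alternatives, with adjusted p from 0.0333 to 0.135. CG13377 fell by 0.35 in CR32027-IR2 (limma, adjusted p = 0.0326) and lost its call in 9 of 19, with adjusted p up to 0.095.

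Genes that handle double-stranded and small RNAs were followed as a list of 17. Of these 15 were in the table and 14 could be tested. Dcr-2, the nuclease that cuts long double-stranded RNA, stood at 919, 902 and 756 RPKM in OreR, 559, 433 and 417 in libraries labelled CR32027-IR1 and 501, 511 and 594 in CR32027-IR2. All hairpin libraries were below all OreR libraries. It fell by 0.88 (limma, adjusted p = 0.00319) and by 0.68 (adjusted p = 0.0156), and the latter call was lost without CR32027-IR2 replicate 1 or 2 or OreR replicate 1 or 2 (adjusted p up to 0.0704). Reads of the UAS-dicer2 transgene cannot be told apart from those of the endogenous gene. loqs, a double-stranded RNA-binding partner of the Dicers, fell by 0.46 in libraries labelled CR32027-IR1 (limma, adjusted p = 0.0087). Its CR32027-IR2 libraries were also below all OreR libraries, but the change of -0.28 did not pass (limma, adjusted p = 0.0957). Nor did loqs pass between the hairpin genotypes (limma, adjusted p = 0.159). AGO2, the effector of short interfering RNAs, had means of 58.1, 58.8 and 64.9 RPKM in OreR, CR32027-IR1 and CR32027-IR2. In all, 0 of 14 were higher and 2 lower in libraries labelled CR32027-IR1, and 0 higher and 1 lower in CR32027-IR2. Of all genes 5.24% were higher and 6.75% lower in the former and 3% and 2.14% in the latter. The shares of the list called lower were above these, but they rest on 2 genes and 1 gene, with Dcr-2 in both. Medians were 0.03 and 0.04, beside 0.01 and -0.03 over all genes. Between the hairpin genotypes Dcr-1 was higher and Tudor-SN lower in libraries labelled CR32027-IR1 (adjusted p = 0.0461 and 0.0449 in limma), and each call was lost in 11 of 19 alternatives. These were 2 of 14 genes, where 19.7% of all genes passed. These are bulk samples, so fewer cells of a type and less RNA per cell cannot be told apart for any gene named here.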

How the data were processed

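RPKM values for 15682 genes were deposited by the authors, and 3246 of the genes had 0 throughout. Stranded poly(A) libraries were made, per the labels' protocols, and TopHat2, CASAVA 1.8.2 and the dm3 build are listed in the submitters' processing notes. Sources used here do not state how reads were counted or with which strand setting. Partners and positions come from BDGP6, with no coordinates converted, and 6 members had a recovered length more than 2% from the BDGP6 span. Whole reads were recovered within 0.01 read for 8484 of 8487 genes (99.96%). The lengths fitted the genomic span for 77.9% of 6946 genes with introns, which lowers their RPKM.

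Groups came from the labels. The model, limma-trend (limma 3.58.1, R 4.3.3), took log2(RPKM + 0.25) for the 8487 genes with a mean above 0.2 RPKM, all 9 libraries at once (6 residual degrees of freedom), with Benjamini-Hochberg adjustment over all genes and calls under 0.05. Fold changes on this scale understate changes of low genes. The fit was tested on simulated data, in which only genes with a mean above 1 RPKM were changed. Of the 30 members 14 reached that level, so the simulation cannot show how changes of the others are found. It also gave every gene the same spread beyond counting error, which real genes need not share. Its outcome is not reported here. voom on the recovered reads was an alternative, beside other pseudocounts, filters, scalings, weights, a replicate block and leaving out each library. The members, the small RNA and marker lists, the tests and the naming rule were chosen with earlier results of these data known. The rule named every called member, the 8 highest, the 5 on each side of the threshold, their partners, CR32027, Dcr-2 and called genes of the small RNA list; other genes were named after their values were seen.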

Additional observations from a re-analysis of the deposited data

Results flagged for a closer look

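4 of 30 antisense RNAs (13.3%) differed between the hairpin genotypes by a direct test (limma), against 19.7% of all genes tested. asRNA:CR43767 was lower in libraries labelled CR32027-IR1 by -5.20 on the log2 scale. asRNA:CR33945 was higher there by 0.92. asRNA:CR43875 was higher by 0.54 and asRNA:CR43866 by 0.84. asRNA:CR43875 kept its call in 17 of 19 alternatives. asRNA:CR43866 lay just under the threshold (limma, adjusted p = 0.04998) and was called in 3 of 18. Both genotypes carry a hairpin against the same RNA, and the target gave no call in libraries labelled CR32027-IR1 against OreR.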

How the results depend on the processing

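The calls of asRNA:CR43767 and asRNA:CR43426 against OreR held in 19 of 19 alternatives and that of asRNA:CR33945 in 18 of 18. No value changed sign past its threshold. Replicate numbers did not pair the libraries (same-number correlations from -0.156 to 0.054). With a replicate block the genes called were 558, 255 and 1101 for CR32027-IR1 against OreR, CR32027-IR2 against OreR and CR32027-IR1 against CR32027-IR2, in place of 1018, 437 and 1670; CR32027 in CR32027-IR2 stayed at -1.44 but lost its call (limma, adjusted p = 0.055), as it did with no filter (-1.44, adjusted p = 0.0553), and 0 small RNA genes were called between the hairpins. Under 0.01 the genes called were 365, 190 and 680, with 2 members between the hairpins and 0 small RNA genes in CR32027-IR2 and between the hairpins. With only the groups compared, 602 genes were called for CR32027-IR1, and 3 and 0 small RNA genes for CR32027-IR2 and between the hairpins. Array weights called 877 genes, 2 members and 3 small RNA genes for CR32027-IR2 and 5 small RNA genes for CR32027-IR1. Without the trend 2 members were called for CR32027-IR2 and 1 small RNA gene between the hairpins. With no filter there was 1 such gene, and at 1 RPKM 2 members.

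Leaving out each library gave 481 to 1247, 239 to 547 and 997 to 2194 genes in that order, 3 to 4, 1 to 2 and 2 to 6 members, and 2 to 4, 0 to 3 and 0 to 3 small RNA genes. CR32027 ranged from 0.19 to 0.48, from -1.64 to -1.08 and from 1.43 to 1.99. Counts moved by over 1.5 times without CR32027-IR1 replicate 1 (532 genes against OreR, 1012 against CR32027-IR2), OreR replicate 1 (654 and 264) or 2 (481 and 244), and CR32027-IR2 replicates 1, 2 and 3 (267, 239 and 266 against OreR; 1080, 997 and 1037 against CR32027-IR1). Without OreR replicate 1, asRNA:CR43730 was also called in CR32027-IR2 (2 members), and without CR32027-IR2 replicate 2 asRNA:CR43875 and asRNA:CR43866 lost their calls between the hairpins (2 members). Means above 0.1 or 0.5 RPKM gave 38 or 22 members. Few reads limit members under 100 reads, whose coefficient of variation was 55.5%.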
